A study of Mus musculus with 4 samples.

Results

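The genes for 9 glycolysis enzymes were followed through single CD4 T cells of the mesenteric lymph node. They were chosen by name, as enzymes of one pathway, and are 9 of the 13314 genes in the deposited count table: Gpi1, Aldoa, Tpi1, Gapdh, Pgk1, Pgam1, Eno1, Pkm and Ldha. All 9 had at least 200 UMIs in every comparison, where a UMI is one counted RNA molecule, so no member was lost to a filter. There were 4 libraries, 1 for each group: colonized Foxp3CNS1-, germ-free Foxp3CNS1-, colonized Foxp3GFP and germ-free Foxp3GFP. Foxp3CNS1- mice lack CNS1, an intronic enhancer of Foxp3 that is known for its part in making regulatory T (Treg) cells outside the thymus, and Foxp3GFP mice are the strain with that enhancer intact. All mice were germ-free males by origin. Colonized mice had been given the fecal microbiota of specific-pathogen-free (SPF) animals and were taken 9 days later, and the other mice stayed without microbes. Lymph nodes of 3 mice were pooled per library, and 50% of the sorted cells were GFP+ and 50% GFP-, so Treg cells are far more frequent than in an unsorted node.

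In all, 16948 cells kept by the authors were analysed, and their 10 clusters (numbered 0 to 9) and second clustering (s0 to s9, given for 9041 cells) were taken as deposited. The libraries held 5406 cells and 17929193 UMIs in colonized Foxp3CNS1-, 3533 and 9360112 in germ-free Foxp3CNS1-, 4030 and 13437705 in colonized Foxp3GFP, and 3979 and 10746648 in germ-free Foxp3GFP. Median UMIs per cell were higher in the colonized libraries, at 2764 and 2832, than in the germ-free ones, at 2286 and 2399. Cell barcodes were shared by pairs of libraries 18 to 34 times, and leaving out the 157 barcodes found in more than one library left the summed colonization and genotype ratios given below within their intervals. The CD4 T cell markers Cd3e, Cd3d, Cd4 and Trac summed to 2835, 2823, 2716 and 2601 CPM (UMIs scaled to a library total of 1000000) in the 4 libraries in the order above, whereas Cd8a and Cd8b1 summed to 20 to 26 CPM. The 3 plasma cell markers summed to 159 and 131 CPM in colonized libraries and to 51 and 41 CPM in germ-free ones. The part of these markers themselves was not tested. Some ratios without cells that held at least 10 immunoglobulin UMIs are given with the alternatives at the end. No group had a replicate, so group, mouse pool and library cannot be told apart, and no test between groups was made.

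Glycolysis splits glucose into pyruvate in the cytosol and yields ATP without oxygen, and lactate dehydrogenase then turns pyruvate into lactate and restores NAD+. Resting T cells rely largely on oxidation in mitochondria, and glycolysis is known to climb when T cells are activated and divide. The transcription factors HIF-1 and Myc are known to drive genes of the pathway, HIF-1 through short sites in their promoters.

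In the GENCODE annotation of GRCm38 the members lie on 6 chromosomes. Gpi1 (chr7:34201330-34230336), Ldha (chr7:46841475-46855627) and Aldoa (chr7:126795234-126800751) share chromosome 7, and Tpi1 (chr6:124810586-124814296) and Gapdh (chr6:125161715-125166467) are near each other on chromosome 6. Pgk1 (chrX:106187100-106203699), Eno1 (chr4:150236721-150248879), Pkm (chr9:59656368-59679375) and Pgam1 (chr19:41911923-41918660) are each on a chromosome of their own. The annotation gives the symbol Aldoa to a second, upstream gene model as well, and the count table has 1 Aldoa column.

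Promoter windows of 4 members are shown because these genes take the different courses described below: Ldha was higher with colonization in most clusters, Pgk1 followed the sum of the members closely, Eno1 went its own way, and Tpi1 stood highest in the proliferating cells relative to other cells. Each window runs from 250 bases before to 50 bases after a transcript start annotated in RefSeq on GRCm38.p6 and is written 5′ to 3′ along the gene, with matches to the HIF-1 core in capitals. The letters searched were ACGTG with its reverse complement, written CACGT, and also GCGTG with its reverse complement, written CACGC. Overlapping matches count as 1 stretch.
Ldha, chr7:46845554-46845853, plus strand: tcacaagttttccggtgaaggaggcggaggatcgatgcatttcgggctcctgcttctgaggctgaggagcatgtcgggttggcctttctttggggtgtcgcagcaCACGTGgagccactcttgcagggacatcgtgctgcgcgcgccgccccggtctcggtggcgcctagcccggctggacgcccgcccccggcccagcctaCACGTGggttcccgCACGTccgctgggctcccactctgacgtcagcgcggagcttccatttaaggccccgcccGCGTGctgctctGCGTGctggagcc
Pgk1, chrX:106186850-106187149, plus strand: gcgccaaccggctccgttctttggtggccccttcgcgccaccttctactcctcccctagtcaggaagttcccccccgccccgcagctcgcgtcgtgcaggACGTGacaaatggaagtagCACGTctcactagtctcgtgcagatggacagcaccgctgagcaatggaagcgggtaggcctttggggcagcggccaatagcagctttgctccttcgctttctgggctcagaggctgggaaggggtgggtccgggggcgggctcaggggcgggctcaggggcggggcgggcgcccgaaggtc
Eno1, chr4:150236947-150237246, plus strand: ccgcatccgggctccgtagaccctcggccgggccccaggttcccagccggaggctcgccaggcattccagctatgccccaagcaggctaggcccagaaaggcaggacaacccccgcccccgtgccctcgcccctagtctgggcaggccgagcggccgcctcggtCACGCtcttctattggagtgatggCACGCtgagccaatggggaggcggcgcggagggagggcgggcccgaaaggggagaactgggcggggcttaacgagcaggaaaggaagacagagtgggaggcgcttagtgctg
Tpi1, chr6:124814109-124814408, minus strand: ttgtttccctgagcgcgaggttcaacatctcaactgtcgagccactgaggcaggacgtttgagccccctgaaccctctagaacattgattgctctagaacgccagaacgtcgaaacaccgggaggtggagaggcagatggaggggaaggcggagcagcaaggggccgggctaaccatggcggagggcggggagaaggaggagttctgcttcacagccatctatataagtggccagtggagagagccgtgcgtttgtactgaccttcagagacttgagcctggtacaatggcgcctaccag
The Ldha window held 5 separate stretches of these letters, beginning at -145, -48, -34, 26 and 38 from the start, and was the only one of the 15 windows of the 9 members with the palindrome CACGTG. The Pgk1 window held 2, at -150 and -131, and the printed Eno1 window also held 2, whereas the Tpi1 window held none. Over the best window of each gene, 7 of 9 members had at least 1 stretch (46.7% of 27025 genes) and 6 of 9 had at least 2 (19.2% of genes). A best window favours genes with more annotated starts, and the members had more windows per gene than all genes did. By window, 11 of 15 held at least 1 stretch, against 43.8% of 32851 windows. Gpi1, like Tpi1, had none, while Gapdh and Pgam1 had 3 each. A match of 5 letters is a description of the sequence and not a measured binding site.

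Summed over the 9 members, the level was higher with colonization in both genotypes. The sum was 3733 CPM in colonized and 3170 CPM in germ-free Foxp3CNS1-, a log2 ratio of 0.24 (95% interval 0.22 to 0.26). It was 3572 CPM in colonized and 2925 CPM in germ-free Foxp3GFP, a log2 ratio of 0.29 (0.27 to 0.31), or 1.22-fold. Both colonized libraries thus lay above both germ-free ones. Intervals are exact (Clopper-Pearson) and cover the counting of UMIs only, not differences between mice, libraries or cells.

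**Figure D1:**
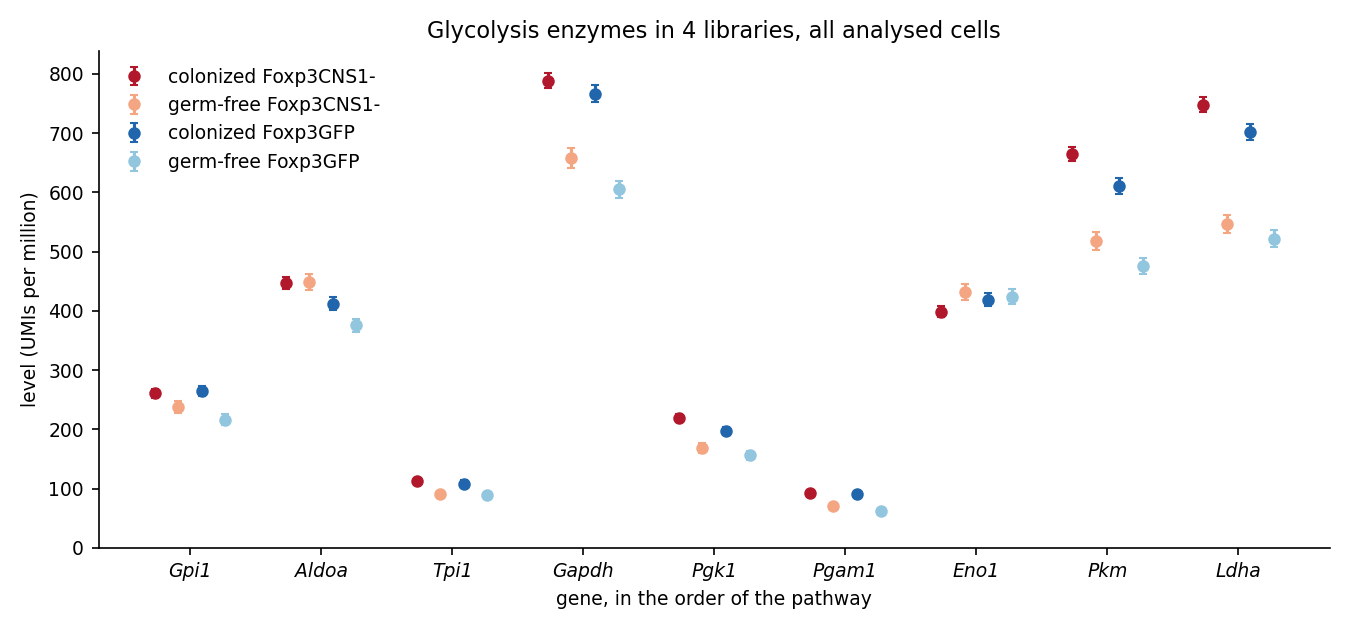
Level of each member in CPM (y axis) in each of the 4 libraries, over all analysed cells. Genes stand in pathway order on the x axis, points are libraries and bars are exact Poisson 95% intervals for counting error. Ldha, Pkm and Gapdh lie clearly higher in the colonized libraries (dark points). Eno1 lies lower in them, but in Foxp3GFP only within counting error.

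Ldha, which makes lactate from pyruvate, had 748 CPM in colonized and 546 CPM in germ-free Foxp3CNS1-, and 702 CPM in colonized and 522 CPM in germ-free Foxp3GFP. Its log2 ratios of colonized over germ-free were 0.45 (0.41 to 0.50) in Foxp3CNS1- and 0.43 (0.38 to 0.48) in Foxp3GFP. Both colonized libraries were above both germ-free ones by a margin far wider than the counting error.

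Pkm, pyruvate kinase, which makes pyruvate and ATP in the last step before lactate, had 665 CPM in colonized and 518 CPM in germ-free Foxp3CNS1-, and 611 CPM in colonized and 476 CPM in germ-free Foxp3GFP. The log2 ratio was 0.36 in both genotypes (0.31 to 0.41). Gapdh, which oxidises the triose phosphate and makes NADH, had 789 CPM in colonized and 658 CPM in germ-free Foxp3CNS1-, and 767 CPM in colonized and 605 CPM in germ-free Foxp3GFP. Its fold of colonized over germ-free was 1.20 in Foxp3CNS1- and 1.27 in Foxp3GFP, so a gene that is widely used as an internal standard differed in level between these libraries.

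Pgk1, the first ATP-making step, had 220 CPM in colonized and 169 CPM in germ-free Foxp3CNS1-, and 197 CPM in colonized and 157 CPM in germ-free Foxp3GFP. Pgam1, which moves the phosphate group of phosphoglycerate, had 92.3 CPM in colonized and 70.7 CPM in germ-free Foxp3CNS1-, and 91.5 CPM in colonized and 61.9 CPM in germ-free Foxp3GFP. Its log2 ratio was 0.38 (0.25 to 0.52) in Foxp3CNS1- and 0.56 (0.43 to 0.70) in Foxp3GFP. For both genes the colonized libraries lay above the germ-free ones without overlap.

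Tpi1, which interconverts the triose phosphates, had 114 CPM in colonized and 90.2 CPM in germ-free Foxp3CNS1-, and 108.5 CPM in colonized and 88.6 CPM in germ-free Foxp3GFP. Gpi1, the isomerase of glucose 6-phosphate at the head of the pathway, had 261 CPM in colonized and 237 CPM in germ-free Foxp3CNS1-, and 265 CPM in colonized and 217 CPM in germ-free Foxp3GFP. The colonized libraries lay above the germ-free ones for both genes, with log2 ratios for Tpi1 of 0.33 (0.22 to 0.45) in Foxp3CNS1- and 0.29 (0.17 to 0.41) in Foxp3GFP, and for Gpi1 of 0.14 (0.062 to 0.21) in Foxp3CNS1- and 0.29 (0.22 to 0.37) in Foxp3GFP.

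The remaining 2 members did not follow. Aldoa, the aldolase that splits the sugar bisphosphate, had 447 CPM in colonized and 448 CPM in germ-free Foxp3CNS1-, and 412 CPM in colonized and 375 CPM in germ-free Foxp3GFP, so that the libraries of the 2 states overlapped. Eno1, enolase, which makes phosphoenolpyruvate, had 398 CPM in colonized and 432 CPM in germ-free Foxp3CNS1-, and 419 CPM in colonized and 424 CPM in germ-free Foxp3GFP. Both colonized libraries were below both germ-free ones for Eno1, an order whose share over all genes was not counted. Its log2 ratio was -0.12 (-0.17 to -0.062) in Foxp3CNS1- and -0.016 (-0.073 to 0.04) in Foxp3GFP, where the interval held 0. Eno1b, an intronless enolase gene of the same protein family, had 263 UMIs against 21372 for Eno1, and the sources used here do not say how reads were split between near-identical copies.

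A member was counted as past the fold when the lower of the 2 levels was at most 0.8 times the higher one. Those past it upward with colonization were Pgk1, Pkm, Ldha, Tpi1 and Pgam1 in Foxp3CNS1-, 5 of 9, against 6.64% of 7714 genes. In Foxp3GFP they were Gapdh, Pgk1, Pkm, Ldha and Pgam1, also 5 of 9, against 9.44% of 7382 genes. No member was past it downward in either genotype, against 10.1% of genes in Foxp3CNS1- and 9.28% in Foxp3GFP. For 7 of 9 members both colonized libraries were above both germ-free ones, against 24% of 9020 genes. The median log2 ratio of the members was 0.33 in both genotypes, while that of all genes measured was -0.021 in Foxp3CNS1- and 0.0019 in Foxp3GFP. The 2 genotypes were measured in separate libraries, but each contrast is 1 library against 1, so their likeness is not replication. Both colonized libraries also had deeper cells than the germ-free ones, as given above.

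The size of the colonization difference depended on how cells were weighed. With every cell given equal weight it was 0.090 in Foxp3CNS1- and 0.17 in Foxp3GFP on the log2 scale, and with every cell thinned to 1500 UMIs it was 0.087 in Foxp3CNS1- and 0.16 in Foxp3GFP. With the mix of clusters held at the same shares of cells in all libraries it was 0.062 in Foxp3CNS1- and 0.14 in Foxp3GFP. Here and below, that setting also weighs clusters by cells and not by UMIs. The part of the fixed mix alone was therefore not measured. With the fixed mix the number of members past the fold was 0 in both genotypes. After thinning it was 1 in each, Ldha in Foxp3GFP and Pgam1 in Foxp3CNS1-. The share of all genes past the fold was not counted under these settings, so the shares given above do not apply to these counts. Ldha kept a log2 ratio between 0.27 and 0.48 in Foxp3CNS1- and between 0.28 and 0.43 in Foxp3GFP over 14 alternatives.

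By genotype the sum differed less. In germ-free mice it was 3170 CPM in Foxp3CNS1- and 2925 CPM in Foxp3GFP, a log2 ratio of 0.12 (0.093 to 0.14), and in colonized mice 3733 CPM in Foxp3CNS1- and 3572 CPM in Foxp3GFP, a log2 ratio of 0.064 (0.047 to 0.08). None of the 9 members was past the fold in either direction in germ-free mice (6.76% of 6982 genes higher and 2.76% lower) or in colonized mice (3.49% of 7967 genes higher and 3.11% lower). In germ-free mice Aldoa had the largest genotype ratio of the members, at 1.19-fold with a log2 ratio of 0.26 (0.19 to 0.32). In colonized mice Pgk1 was first at 0.16 (0.084 to 0.23), and Pkm and Aldoa were both at 0.12. The median of all genes was itself at 0.050 in germ-free and 0.033 in colonized mice, and with the cluster mix held fixed the sum was at 0.076 in germ-free and at -0.0033 in colonized mice, a value of the other sign. These comparisons share their libraries with the colonization comparisons.

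Clusters differed far more than groups did. The fixed marker lists gave a Treg-like name to clusters 0, 3 and 6, naive-like to 1 and 2, proliferating-like to 8 and follicular helper (Tfh)-like to 9, while cluster 5 was led by S100a4, Ccr2 and S100a6 and clusters 4 and 7 stayed unnamed. None of the members was among the 10 leading genes of any cluster. Since the clusters were made from the same counts, their levels are a description and no test.

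The sum was lowest in the naive-like clusters, at 2291 CPM in cluster 1 and 2595 CPM in cluster 2. The Treg-like clusters had 2987, 3331 and 2910 CPM, and cluster 4 had 2929 CPM. Cluster 5 had 3915 CPM, cluster 7 had 4065 CPM and the Tfh-like cluster 9, of only 84 cells, had 4502 CPM. The proliferating-like cluster 8 stood apart at 7183 CPM.

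**Figure D2:**
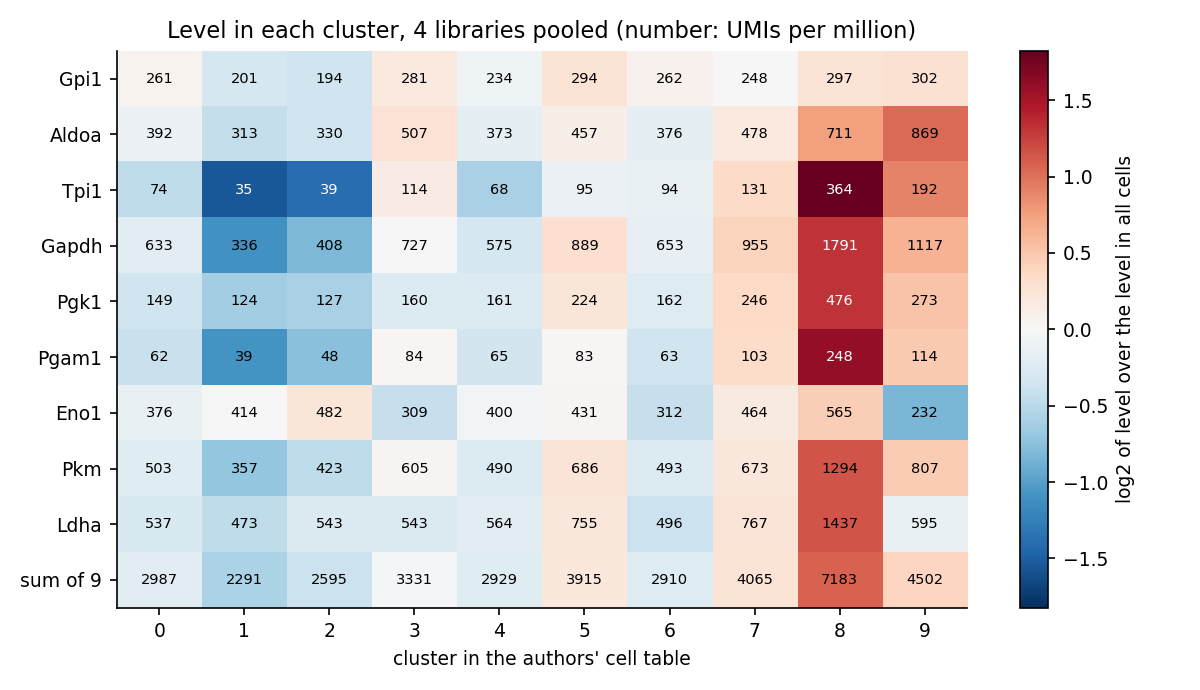
Level of each member and of their sum in each cluster, with the 4 libraries pooled. The number in a cell is CPM, and the colour is the log2 of that level over the level in all analysed cells. Cluster 8 is highest for 7 of the 9 members, Aldoa and Gpi1 are highest in cluster 9, and Eno1 shows little of the shared pattern.

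Within each library the sum in cluster 8 exceeded that in the other cells by a log2 ratio of 1.21 ± 0.082 (SD, n = 4 libraries), or 2.31-fold, with a range of 1.09 to 1.27. Tpi1 was 4.90-fold and Pgam1 3.80-fold higher there, Pgk1 and Gapdh 2.88-fold, Ldha 2.45-fold, Pkm 2.42-fold and Aldoa 1.82-fold. Eno1 was 1.34-fold and Gpi1 1.19-fold higher, with log2 SDs of 0.26 and 0.14 over libraries. Past the fold in every library were 7 of 9 members, against 20.1% of 9020 genes.

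Cells of cluster 8 had a median of 6716 UMIs, the deepest of all clusters, and among the other cells the sum also stood higher in deeper cells. From 2500 to below 4000 UMIs per cell the sum was 4446 CPM in cluster 8 and 2753 CPM in the other cells, from 4000 to below 8000 UMIs 5766 CPM in cluster 8 and 3584 CPM in the other cells, and from 8000 UMIs upward 7964 CPM in cluster 8 and 5219 CPM in the other cells. Cluster 8 was therefore higher at each of these depths. Thinned to 1500 UMIs, a cluster 8 cell held a median of 9 member UMIs, with 4 at the 10th and 15 at the 90th percentile, whereas the medians of the other clusters were 3 to 6.

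**Figure D3:**
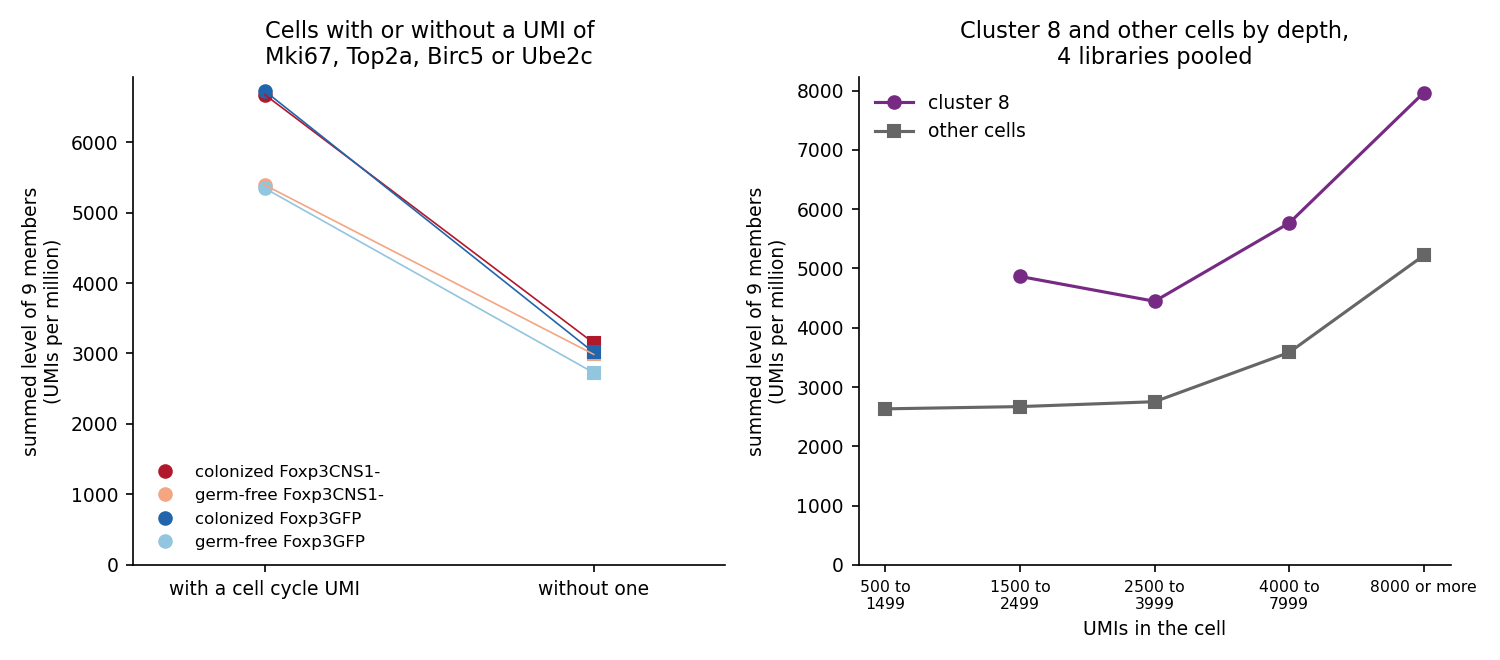
Left, summed level of the 9 members (CPM) in cells with and without a UMI of Mki67, Top2a, Birc5 or Ube2c, with 1 point per library. Right, the sum in cluster 8 and in the other cells by UMIs per cell, with the 4 libraries pooled. Cells with a cell cycle UMI lie at 5345 to 6725 CPM against 2726 to 3148 for cells without one, and cluster 8 lies above the other cells at each depth shown for both.

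Cells with a UMI of Mki67, Top2a, Birc5 or Ube2c, which are expressed in dividing cells, were picked across all clusters after the data had been seen. With such a UMI against without, the sum was 6673 against 3148 CPM in colonized Foxp3CNS1-, 5390 against 2988 CPM in germ-free Foxp3CNS1-, 6725 against 3014 CPM in colonized Foxp3GFP and 5345 against 2726 CPM in germ-free Foxp3GFP. The sum was higher in the cells with such a UMI in all 4 libraries. Median UMIs per cell were 4144.5 to 5416 in these cells and 2272.5 to 2764 in the others, so depth went with the choice.

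The proliferation markers moved with colonization. All 8 of them stood above their germ-free level in both genotypes, 7 past the fold in Foxp3CNS1- and 8 in Foxp3GFP, and their sum was 589 CPM in colonized and 340 CPM in germ-free Foxp3CNS1-, and 502 CPM in colonized and 308 CPM in germ-free Foxp3GFP. Cells with a cell cycle UMI made up 7.55% of colonized and 3.31% of germ-free Foxp3CNS1- cells, and 6.63% of colonized and 3.57% of germ-free Foxp3GFP cells. Without them the colonization log2 ratio of the summed members was 0.075 (0.054 to 0.097) in Foxp3CNS1- and 0.15 (0.12 to 0.17) in Foxp3GFP. Without cluster 8 as well it was 0.042 (0.019 to 0.064) in Foxp3CNS1- and 0.13 (0.11 to 0.15) in Foxp3GFP. Gapdh was then at -0.0093 in Foxp3CNS1- and 0.12 in Foxp3GFP, Tpi1 at -0.060 in Foxp3CNS1- and -0.020 in Foxp3GFP, and Ldha was at 0.27 in Foxp3CNS1- and 0.28 in Foxp3GFP. Of the 8 effector markers 5 were past the fold upward in each genotype, and 2 in Foxp3CNS1- and 1 in Foxp3GFP downward, with a sum of 989 CPM in colonized and 557 CPM in germ-free Foxp3CNS1-, and 909 CPM in colonized and 493 CPM in germ-free Foxp3GFP. The 5 stress genes summed to 207 CPM in colonized and 131 CPM in germ-free Foxp3CNS1-, and to 229 CPM in colonized and 155 CPM in germ-free Foxp3GFP. The part of effector cells was not tested; without cells with an Hspa1a or Hspa1b UMI the ratio of the summed members was 0.22 in Foxp3CNS1- and 0.26 in Foxp3GFP.

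**Figure D4:**
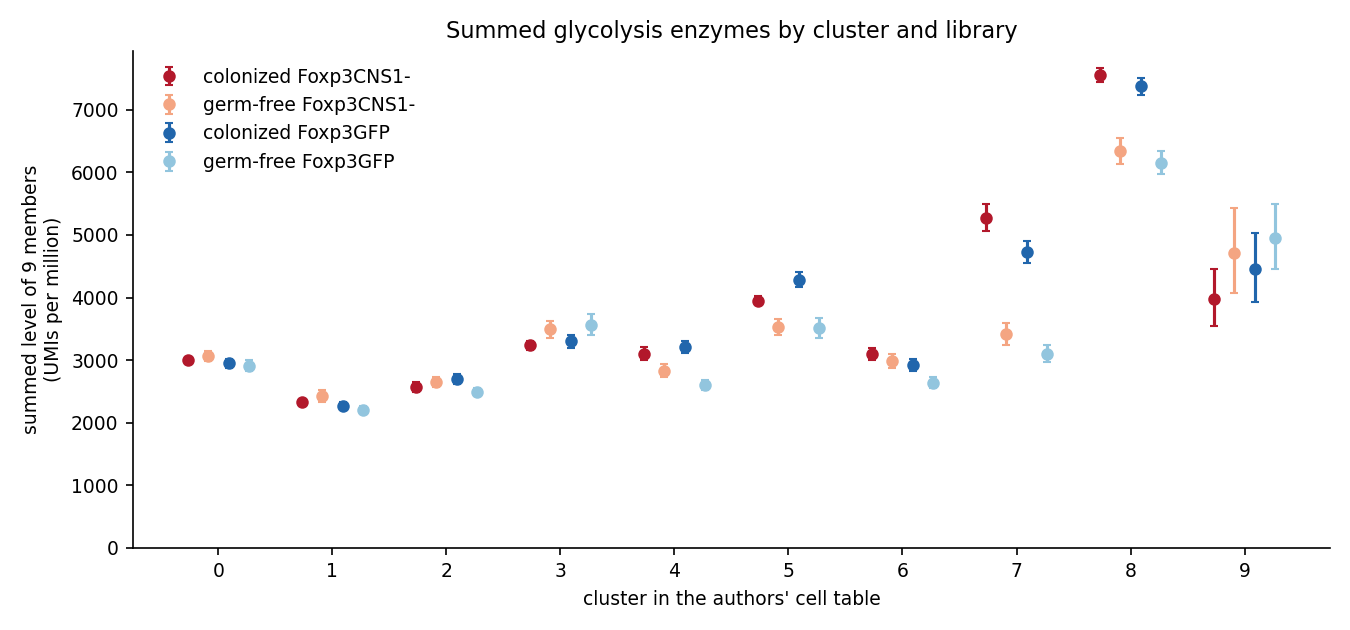
Summed level of the 9 members (CPM, y axis) in each cluster (x axis) and library. Points are libraries and bars are exact Poisson 95% intervals for counting error. The colonized libraries (dark points) are above the germ-free ones in clusters 4, 5, 7 and 8, and not in clusters 3 and 9.

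Within clusters the colonization difference was uneven. It was widest in cluster 7, which is led by Actb and Slc39a1, with 5277 CPM in colonized and 3411 CPM in germ-free Foxp3CNS1-, and 4728 CPM in colonized and 3096 CPM in germ-free Foxp3GFP. Pgk1 there was 1.98-fold higher in colonized Foxp3CNS1- and 1.96-fold in colonized Foxp3GFP, and Pkm 1.66-fold and 1.87-fold in the same order. The log2 ratio of the sum in cluster 7 was 0.63 (0.54 to 0.72) in Foxp3CNS1- and 0.61 (0.53 to 0.69) in Foxp3GFP, and 0.19 (0.071 to 0.31) in Foxp3CNS1- and 0.37 (0.27 to 0.47) in Foxp3GFP without the cells with a cell cycle UMI. Such cells were 13.5% of colonized and 4.22% of germ-free Foxp3CNS1- cells of that cluster, and 14.8% of colonized and 4.61% of germ-free Foxp3GFP cells.

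In the proliferating-like cluster 8 the sum was 7556 CPM in colonized and 6338 CPM in germ-free Foxp3CNS1-, and 7373 CPM in colonized and 6155 CPM in germ-free Foxp3GFP. Its log2 ratios were 0.25 (0.20 to 0.31) in Foxp3CNS1- and 0.26 (0.21 to 0.31) in Foxp3GFP. In cluster 5 the ratios were 0.17 (0.11 to 0.22) in Foxp3CNS1- and 0.29 (0.21 to 0.36) in Foxp3GFP, and in cluster 4 they were 0.13 (0.060 to 0.20) in Foxp3CNS1- and 0.30 (0.24 to 0.36) in Foxp3GFP.

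The naive-like and Treg-like clusters showed little of it. Clusters 0 and 1 had ratios of -0.035 and -0.058 in Foxp3CNS1- and of 0.019 and 0.044 in Foxp3GFP, and all 4 intervals held 0. Cluster 2 was at -0.042 (-0.10 to 0.019) in Foxp3CNS1- and 0.12 (0.057 to 0.18) in Foxp3GFP. The Treg-like cluster 6 was at 0.057 (-0.012 to 0.13) in Foxp3CNS1- and 0.15 (0.078 to 0.22) in Foxp3GFP. Cluster 3, which had the highest Treg marker sum, was lower with colonization in both genotypes, with -0.11 (-0.18 to -0.044) in Foxp3CNS1- and -0.11 (-0.20 to -0.031) in Foxp3GFP. That cluster also had the highest plasma cell marker sum, at 647 CPM against 28.3 to 114 CPM in the other clusters. The part of plasma cell RNA in its ratios was not tested. In all, the interval was above 0 in 4 of 10 clusters in Foxp3CNS1- and 6 of 10 in Foxp3GFP, and below 0 in 1 of 10 in each.

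**Figure D5:**
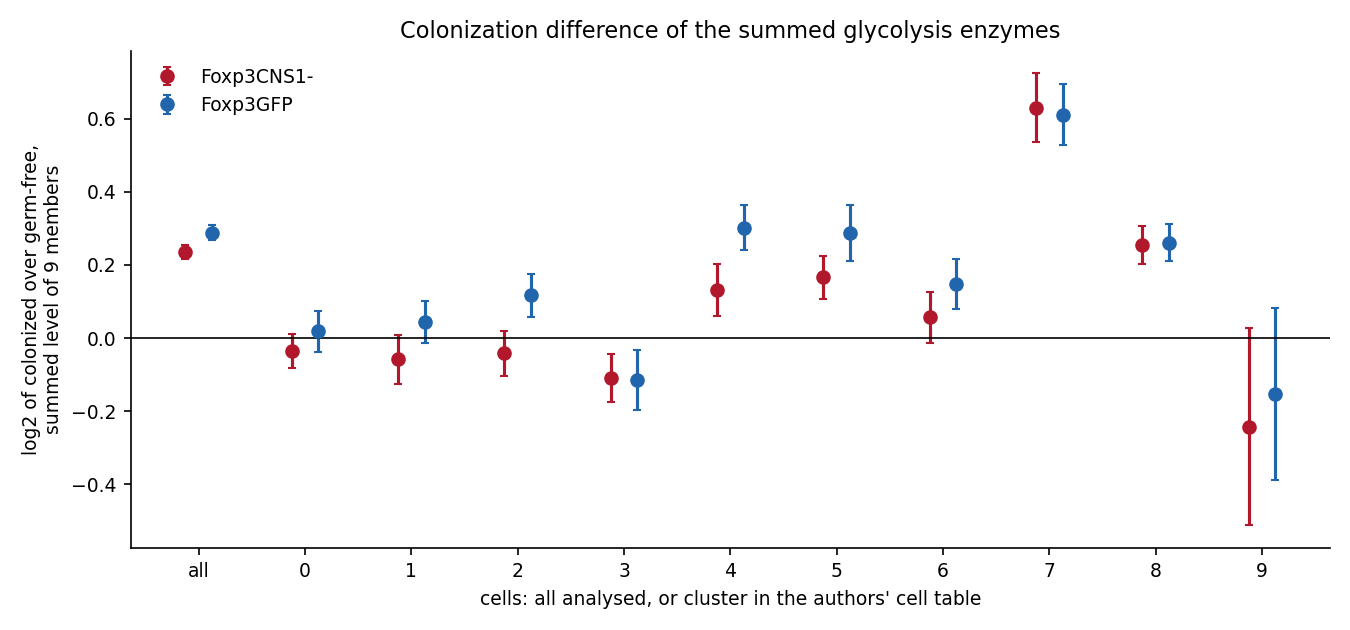
The log2 ratio of colonized over germ-free for the summed level of the 9 members (y axis), over all analysed cells and in each cluster, for both genotypes. Bars are exact 95% intervals for counting error, and the line marks equal levels. The ratio is near 0.6 in cluster 7 and at -0.11 in cluster 3 in both genotypes.

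By the number of clusters whose interval lay above 0, Ldha led the members in both genotypes. Its level was higher in the colonized library in 10 of 10 clusters in Foxp3CNS1-, in 7 of them with an interval above 0, and in 8 of 10 in Foxp3GFP, all 8 with an interval above 0. In the naive-like cluster 1 it had 513 CPM in colonized and 460 CPM in germ-free Foxp3CNS1-, and 478 CPM in colonized and 420 CPM in germ-free Foxp3GFP. In cluster 5 it had 813 CPM in colonized and 611 CPM in germ-free Foxp3CNS1-, and 815 CPM in colonized and 542 CPM in germ-free Foxp3GFP. The 2 clusters where it was not higher in Foxp3GFP were 3, at 541 CPM in colonized and 552 CPM in germ-free mice, and 9, on 30 and 56 UMIs. For each of the other 8 members the interval was above 0 in 1 to 5 clusters. Whether an interval leaves out 0 depends on the number of UMIs. Over all cells this ran from 4211 for Pgam1 to 37109 for Gapdh, with 33562 for Ldha. The share of all genes with as many clusters was not counted, and clusters of 1 library are not replicates. By sign alone Gpi1 was higher in the colonized library in 7 of 10 clusters in Foxp3CNS1- and 9 of 10 in Foxp3GFP, and Aldoa, Pgk1, Pkm and Pgam1 in 8 of 10 in Foxp3GFP, as many as Ldha. For Eno1 it was above 0 in 1 cluster of each genotype and below 0 in 3 clusters in Foxp3CNS1- and 2 in Foxp3GFP.

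Across clusters Eno1 followed the sum of the others least, and Gpi1 next. Eno1 had 414 and 482 CPM in the naive-like clusters 1 and 2, above its 309 and 312 CPM in the Treg-like clusters 3 and 6, whereas the sum ran the other way, and it was lowest in the Tfh-like cluster 9, at 232 CPM. With the libraries pooled, Aldoa and Gpi1 had their highest levels in that cluster. Aldoa was at 869 CPM, above the 711 CPM of cluster 8, and Gpi1 at 302 CPM, beside 297 CPM in cluster 8. Single libraries did not all rank them so. In colonized Foxp3CNS1- Aldoa had 617 CPM in cluster 9 and 721 CPM in cluster 8, and Gpi1 268 and 321 CPM. In germ-free Foxp3CNS1- Gpi1 had 248 CPM in cluster 9 and 269 CPM in cluster 8. Aldoa was higher in cluster 9 than in cluster 8 in the remaining libraries. Gapdh had 336 CPM in cluster 1 and 1791 CPM in cluster 8. Across 36 groups of cluster and library with at least 50 cells, the level of each member (log2 of CPM plus 10) had a Pearson r with the sum of the other 8 of 0.98 for Pkm, 0.97 for Pgk1 and Pgam1, 0.94 for Gapdh, 0.92 for Tpi1, 0.90 for Ldha and 0.89 for Aldoa, but 0.62 for Gpi1 and 0.38 for Eno1. Without cluster 8, over 32 groups, Eno1 was at -0.074. These points share libraries, depth and clusters, so the values are a description.

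In the second clustering the sum was 7175 CPM in s8, 6596 CPM in s6, 4973 CPM in s5 and 4874 CPM in s7, against 2686 to 3345 CPM in the other 6. Cells of s8, s6, s5 and s7 also held more UMIs each than those of the other 6. For example, s8 had 2484068 UMIs in 227 cells and s1 had 5285719 UMIs in 1830 cells. The part of depth in the subset levels was not tested. In s5 both intervals of the colonization ratio held 0: it had 4887 CPM in colonized and 5018 CPM in germ-free Foxp3CNS1-, and 4976 CPM in colonized and 5149 CPM in germ-free Foxp3GFP. In s7 the sum was 5179 CPM in colonized and 3880 CPM in germ-free Foxp3CNS1-, and 5319 CPM in colonized and 3500 CPM in germ-free Foxp3GFP, with ratios of 0.42 (0.30 to 0.53) in Foxp3CNS1- and 0.60 (0.42 to 0.79) in Foxp3GFP. Germ-free s7 rested on 76 cells in Foxp3CNS1- and 30 in Foxp3GFP. Colonized s7 cells were deeper as well. In Foxp3CNS1- 156 colonized cells held 622117 UMIs and the 76 germ-free cells 196923. In Foxp3GFP 70 colonized cells held 274471 UMIs and the 30 germ-free cells 84857.

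Foxp3, the transcription factor of Treg cells, allowed a split within clusters. In cluster 5 the sum was lower in cells with a Foxp3 UMI than in those without in all 4 libraries: 3379 against 4077 CPM in colonized Foxp3CNS1-, 3130 against 3599 CPM in germ-free Foxp3CNS1-, 4103 against 4343 CPM in colonized Foxp3GFP, where the interval of the ratio (-0.18 to 0.010) held 0, and 3116 against 3578 CPM in germ-free Foxp3GFP. The pooled log2 ratio was -0.18 (-0.23 to -0.13), and Pgam1, at -0.56, and Pgk1, at -0.39, were among the lowest, while Ldha was at -0.036 (-0.15 to 0.078). Cluster 7 went the other way in the 3 libraries measured. In germ-free Foxp3CNS1- the sum was 4007 CPM in 25 cells with a Foxp3 UMI and 3282 CPM in those without. It was 5055 against 4620 CPM in colonized Foxp3GFP, with 38 such cells, and 4152 against 2935 CPM in germ-free Foxp3GFP, with 24. The ratio pooled over all 4 libraries was 0.20 (0.12 to 0.28). That pool also held colonized Foxp3CNS1-, where too few cells had a Foxp3 UMI for a ratio of its own. In cluster 8 the pooled ratio was -0.17 (-0.20 to -0.13), likewise with cells of germ-free Foxp3CNS1-, which had too few for a ratio of its own. In the other clusters measured the pooled ratio was between -0.10 and 0.046. Libraries differed in sign in clusters 8 and 4. Cluster 8 was at -0.16 in colonized Foxp3CNS1-, -0.29 in colonized Foxp3GFP and 0.11 (0.018 to 0.21) in germ-free Foxp3GFP. In that order the cells with a Foxp3 UMI numbered 44, 47 and 23. Median UMIs in cells with against without one were 7579.5 against 7384, 7143 against 6313 and 6985 against 5190. The part of depth in the Foxp3 ratios was not tested. Cluster 4 was at -0.18 in colonized and -0.35 (-0.51 to -0.19) in germ-free Foxp3CNS1-. In Foxp3GFP it was at 0.21 in colonized and -0.0050 in germ-free mice. In the Treg-like cluster 3 the pooled ratio was 0.046 (-0.0012 to 0.093). A Foxp3 UMI is missed in many cells that express the gene, and in the naive-like cluster 1 it was found in 114 of 2751 cells, so the cells without one are a mixture.

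Across the same 36 groups the 10 genes most like the sum, out of 2994 with at least 2000 UMIs, were Txn1, Hmgb2, Cox5a, Cox7a2, Dbi, Prdx1, Slbp, Psmb7, Cox7c and Ppil1, with r from 0.96 to 0.98. Without cluster 8 their r was 0.90 to 0.94. The least like were Rps27, Fau, Rps14, Cox7a2l and Rps15a, with r from -0.97 to -0.93, of which 4 encode ribosomal proteins or a ribosomal fusion protein. CPM shares 1 total, so a group with a larger share of ribosomal protein RNA has less left for other genes, and with ribosomal protein and mitochondrial genes left out of the total the colonization ratios of the summed members were 0.21 in Foxp3CNS1- and 0.25 in Foxp3GFP.

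Other genes around glycolysis were read from lists. Upstream steps were sparse: Hk1, a hexokinase, had 44.3 CPM in colonized and 39.9 CPM in germ-free Foxp3CNS1-, and 41.2 CPM in colonized and 36.4 CPM in germ-free Foxp3GFP, while Hk2 had 4.32 CPM at most. Among phosphofructokinases, the committed step, Pfkp was at a log2 ratio of 0.31 in Foxp3CNS1- and 0.47 in Foxp3GFP and was past the fold in Foxp3GFP only, a difference between genotypes that was not tested, and Pfkl was at -0.13 in Foxp3CNS1- and -0.057 in Foxp3GFP. None of the 4 PFKFB genes, which set the level of a phosphofructokinase activator, had 200 UMIs. Of 6 listed isoenzymes measured in Foxp3CNS1- 1 was past the fold upward and 1 downward, and of 5 in Foxp3GFP 0 upward and 1 downward, namely Ldhb, the other lactate dehydrogenase subunit, at -0.32, on the threshold itself. For glucose and lactate transport 1 of 4 in Foxp3CNS1- and 1 of 3 in Foxp3GFP were past it upward.

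The mitochondrial and side branches differed less than the members. Of 17 TCA cycle genes 15 were above 0 in each genotype, but 1 in Foxp3CNS1- and 0 in Foxp3GFP were past the fold, with medians of 0.12 in Foxp3CNS1- and 0.18 in Foxp3GFP. The 7 pentose phosphate genes had medians of 0.089 in Foxp3CNS1- and 0.18 in Foxp3GFP with 0 past the fold. Of 8 genes for the fate of pyruvate, 0 were past it upward and 1 downward in each genotype: Pdk1, the kinase that blocks pyruvate dehydrogenase, had 77.1 CPM in colonized and 103 CPM in germ-free Foxp3CNS1-, and 86.1 CPM in colonized and 115 CPM in germ-free Foxp3GFP. By cluster Pdk1 had 150 and 149 CPM in the naive-like clusters 1 and 2, where the summed members were lowest. It had 39.1 CPM in cluster 8, where they were highest.

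Hif1a and Myc had lower levels in the colonized than in the germ-free library of each genotype. Hif1a, the oxygen-regulated subunit of HIF-1, had 92.03 CPM in colonized and 113 CPM in germ-free Foxp3CNS1-, and 85.95 CPM in colonized and 104 CPM in germ-free Foxp3GFP. Myc had 28.9 CPM in colonized and 37.0 CPM in germ-free Foxp3CNS1-, and 28.8 CPM in colonized and 33.3 CPM in germ-free Foxp3GFP. Of the regulators measured, 0 of 15 in Foxp3CNS1- and 2 of 13 in Foxp3GFP were past the fold upward and 3 and 1 downward. The hypoxia targets outside glycolysis had medians of -0.027 in Foxp3CNS1- and 0.080 in Foxp3GFP, with 1 of 7 upward in each and 0 and 1 downward. RNA levels of Hif1a and Myc do not read the activity of their proteins, and the part of either in the member levels was not tested.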

How the data were processed

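CD4 T cells of pooled mesenteric lymph nodes were captured with 10x Genomics 3′ chemistry in 4 libraries. The authors deposited 1 table of raw UMI counts, whole numbers for 17478 cells and 13314 genes, and a cell table with the library, their filter and their cluster labels. Per the submitters' processing notes, Cell Ranger and Scanpy 1.5.1 were used with the mm10 build; the sources used here do not say how reads were shared between near-identical gene copies. Cells without a library (227) and cells the authors removed (303) were left out, and 3 columns of the cell table were not used. No doublet caller was run.

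From the counts, UMIs were summed per library, or per cluster and library, and divided by the summed total (CPM). Ratios carry exact 95% Clopper-Pearson intervals. Genes were compared where both libraries together held 200 UMIs or more, and called past the fold at a ratio of 0.8 between the lower and the higher level. With 1 library per group no test was made. Across cells, the variance of thinned member counts was 1.07 to 2.60 times their mean, so the intervals are too narrow. Ratios put into simulated library totals with Poisson counting error were recovered. This checks the calculation only, since the simulation held no spread between cells, mice or libraries. The 9 members were all named; other genes were named from the lists, by a fixed rank of likeness, or where a sentence says so. The members and lists were chosen with earlier results of these data known. Alternatives were equal weight per cell, thinning, another total, a fixed cluster mix, left-out cells and other fold sizes. Python 3.11.15, numpy 2.4.6, pandas 2.3.3 and scipy 1.17.1 were used.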

Additional observations from a re-analysis of the deposited data

Results flagged for a closer look

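Each of the following differences in the log2 ratio of the summed members was picked because the counting intervals of the 2 ratios lay on opposite sides of 0, and none of the differences was itself tested. In cluster 2, Foxp3CNS1- over Foxp3GFP was -0.069 in colonized and 0.090 in germ-free mice, a difference of -0.16. In s6 the same ratio was -0.098 in colonized and 0.15 in germ-free mice, a difference of -0.25. In s8 it was 0.18 in colonized and -0.14 in germ-free mice, a difference of 0.32. In cluster 4, cells with a Foxp3 UMI over cells without one stood at -0.18 in colonized Foxp3CNS1- and 0.21 in colonized Foxp3GFP, a difference of -0.39. In cluster 8 that ratio was -0.29 in colonized Foxp3GFP and 0.11 in germ-free Foxp3GFP, a difference of -0.41. The germ-free value rested on 23 cells with a Foxp3 UMI, at a median of 6985 UMIs against 5190 in cells without one. In colonized Foxp3GFP there were 47 such cells, at 7143 against 6313 UMIs.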

How the results depend on the processing

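Of 504 member ratios recomputed, 27 changed sign, 15 of them from a ratio whose interval already held 0. The other 12 were Aldoa in Foxp3GFP by colonization with a fixed cluster mix (-0.0022); Gapdh by genotype in colonized mice with another total (-0.0019), a fixed mix (-0.068) and no cluster 8 (-0.0032), and by colonization in Foxp3CNS1- without cluster 8 and cell cycle cells (-0.0093); Tpi1 by colonization in Foxp3CNS1- with a fixed mix (-0.059), no cluster 8 (-0.020) and neither cluster 8 nor cell cycle cells (-0.060), and in Foxp3GFP thinned (-0.020), with a fixed mix (-0.080), without cell cycle cells (-0.022) and without both (-0.020). The cause was not tested.

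The colonization ratio of the sum in Foxp3CNS1-, 0.24, was 0.090 per cell, 0.087 thinned, 0.21 without ribosomal protein and mitochondrial genes in the total, 0.26 less the median gene, 0.062 with a fixed mix, 0.078 without cluster 8, 0.14 without cells above the 98th percentile of depth, 0.20 without immunoglobulin-bearing cells, 0.075 without cell cycle cells and 0.042 without both those and cluster 8. That in Foxp3GFP, 0.29, was 0.17 per cell, 0.16 thinned, 0.25 with the other total, 0.14 with a fixed mix, 0.19 without cluster 8, 0.19 without the deepest cells, 0.26 without cells with Hspa1a or Hspa1b, 0.15 without cell cycle cells, 0.13 without both and 0.26 without clusters 4 and 7.

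The genotype ratio in germ-free mice, 0.12, was 0.066 with the other total, 0.066 less the median gene, 0.076 with a fixed mix, 0.14 without cluster 8, 0.16 without immunoglobulin-bearing cells and 0.15 without cluster 8 and cell cycle cells. In colonized mice, 0.064, it was 0.044 thinned, 0.021 with the other total, 0.031 less the median gene, -0.0033 with a fixed mix, 0.031 without cluster 8, 0.081 without the deepest cells and 0.081 without immunoglobulin-bearing cells. Cluster 8 over other cells, 1.21, was 1.12 per cell, 1.103 thinned, 1.05 with the other total, 0.93 without the deepest cells, 1.11 for the sum without Gapdh and 1.003 without cell cycle cells.

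Of 9 members, 5 were past the fold by colonization in each genotype. At 1.5-fold, 2.45% of all genes were past it upward in Foxp3CNS1- and 2.91% in Foxp3GFP. For settings that reweigh or leave out cells, or change the total, the share of all genes was not counted. The member counts below therefore have no background under those settings. In Foxp3CNS1- the count was 0 per cell, 1 thinned, 0 with a fixed mix, 0 without cluster 8, 1 without the deepest cells, 2 without immunoglobulin-bearing cells, and 0 without cell cycle cells, without both and at 1.5-fold. In Foxp3GFP it was 1 per cell, 1 thinned, 3 with the other total, 0 with a fixed mix, 2 without cluster 8, 2 without the deepest cells, 3 without Hspa1a or Hspa1b cells, 2 without clusters 4 and 7, and 0 without cell cycle cells, without both and at 1.5-fold. By genotype, 0 became 2 in germ-free mice (29.4% of all genes) and 1 in colonized mice (21.9%) at 1.1-fold.

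Leaving out cell cycle cells, clusters 4 and 7, or shared barcodes was chosen after seeing the data. No paired analysis was possible because each group has 1 sample.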

Other observations

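For some genes around the pathway, levels in single clusters are given here with the libraries pooled. Mif, a cytokine, had 1523 CPM in the proliferating-like cluster 8 and 314 to 537 CPM in the other clusters. Tkt, transketolase of the pentose phosphate pathway, had 270 CPM in cluster 8, and Txnip, which restrains glucose uptake, had 21.7 CPM there, its lowest level. Hif1a was at 383 CPM in the Tfh-like cluster 9 and 194 CPM in the Treg-like cluster 3, against 24.8 CPM in the naive-like cluster 1.

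The 303 cells that the authors had removed held 2760 CPM of the summed members, against 3420 CPM in the analysed cells.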
